A study of Mus musculus with 5 samples.

Results

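General capillary cells of the mouse lung were picked from single-cell counts by the presence of Gpihbp1 and the absence of aerocyte, arterial, venous and lymphatic transcripts. A member had at least 700 genes and 0.1 to 15% mitochondrial UMIs (unique molecular identifiers, each standing for 1 captured RNA molecule), at least 3 UMIs of Cdh5, Pecam1 and Cldn5 together, and no UMI of Epcam, Pdgfra, Pdgfrb, Ptprc, Mki67 or Top2a. It had at least 2 UMIs of Gpihbp1, none of Car4, Ednrb or Fibin, and none of Gja5, Bmx, Slc6a2, Bst1, Mmrn1 or Prox1. Of 39503 deposited barcodes, 29475 passed the gene and mitochondrial limits, 20550 of these met the conditions for non-cycling endothelial cells, and 4680 were members. The 5 groups were β1fl/fl mice 7 days after LPS with 1156 members, β1AT2-KO mice 7 days after PBS with 1889, β1AT2-KO mice 7 days after LPS with 1237, and β1fl/fl and β1AT2-KO mice 21 days after LPS with 248 and 150. The submitters label the genotypes Itgb1 fl/fl and Itgb1 iKO.

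All mice were adult C57BL/6 and all received doxycycline. The β1AT2-KO mice carried SP-C rtTA, Tet-O-Cre and a floxed β1 integrin gene, so Cre was driven in type 2 alveolar epithelial (AT2) cells and not in the endothelium, and the β1fl/fl littermates carried the floxed alleles without rtTA or Cre. LPS or PBS was given once into the trachea, at about 3 months of age. Viable CD45-, Ter119- cells were sorted, a gate against immune and red cells, and the day 21 suspensions were enriched for epithelial cells. Each group was 1 library of pooled mice, and 3 mice per library could be told apart by hashtag antibody. An uninjured β1fl/fl group was not analysed here. The questions were what LPS injury did to these cells in β1AT2-KO lungs, and whether loss of β1 integrin in AT2 cells went with a difference in the neighbouring capillary after LPS.

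Alveolar capillaries hold 2 kinds of endothelial cell. Aerocytes are large, thin, Car4-positive cells specialised for gas exchange. General capillary cells are smaller, serve as progenitors that maintain and repair the capillary bed, and regulate vessel tone. They display GPIHBP1, which carries lipoprotein lipase (Lpl) to the vessel lumen, and they form the diaphragm protein PLVAP, the apelin receptor (Aplnr) and the C1q receptor CD93. They also carry MHC class II, the peptide display used in contact with CD4 T cells.

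The members held a median of 1772 to 2278 UMIs per cell, and 64574 to 1500869 UMIs per mouse once summed over cells with a single hashtag. Values per mouse are in CPM, the UMIs of a gene scaled to 1 common total over the members of every mouse. Because all mice of a group share 1 library, group and library cannot be told apart. Xist and Y-linked transcripts showed all 3 β1fl/fl mice at day 7 to be female and all 3 β1AT2-KO mice given LPS to be male, while the other groups held both sexes, so at day 7 genotype, sex and library cannot be told apart. RNA of other cell types was found in members of every library. Whether it was free RNA or came from doublets, cells caught in the same droplet, was not tested. Summed markers of epithelium outside the rule ran from 2777 to 3548 CPM in β1fl/fl and from 4351 to 5423 CPM in β1AT2-KO members after LPS at day 7. After PBS they were 2752, 459 and 485 CPM in the 3 mice of that library. At day 21 they ran from 2958 to 3435 CPM in β1fl/fl and from 16390 to 23900 CPM in β1AT2-KO members. No library shared more than 1.69% of the barcodes of the smaller one.

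The markers named for general capillary cells were present in every mouse. Plvap ran from 1865 to 4632 CPM, Aplnr from 82.7 to 258 CPM and Cd93 from 959 to 1398 CPM over the 15 mice. To compare cell types at equal depth each cell was thinned to 2000 UMIs. In the β1fl/fl library at day 7, Plvap was then found in 92.0% of 847 members, against 24.2% of 809 aerocyte-type cells (at least 3 UMIs of Car4, Ednrb and Fibin, at most 1 of Gpihbp1) and 12.4% of non-endothelial cells. Aplnr was found in 29.5% of members against 4.57% of aerocyte-type cells, and Cd93 in 83.9% against 24.7%. The exact 95% binomial intervals, which cover counting error only, were 89.9 to 93.7% and 21.3 to 27.3% for Plvap, 26.5 to 32.7% and 3.24 to 6.25% for Aplnr, and 81.3 to 86.4% and 21.8 to 27.9% for Cd93. Without thinning the members' shares were 92.7%, 31.4% and 87.5%. These genes were also found in arterial-type and venous-type cells of that library, where Plvap stood at 2576 and 2304 CPM against 2623 CPM in members, Cd93 at 968 and 1043 against 1217 CPM, and Aplnr at 26.9 and 59.9 against 197 CPM.

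The Gpihbp1 threshold and the zero set on Car4, Ednrb and Fibin were the steps that removed most cells. In the β1fl/fl library at day 7, 3743 of 6175 endothelial cells had at least 2 Gpihbp1 UMIs and 1354 of these had none of the 3 aerocyte transcripts. Both genes were also present in cells just outside the Gpihbp1 threshold. At 1 UMI of Gpihbp1 the 273 cells of that library held 1774 CPM of Plvap and 1489 CPM of Cd93, and at 2 UMIs the 197 cells held 2117 and 1328 CPM. With 3 or more UMIs, 959 cells held 2709 CPM of Plvap and 1198 CPM of Cd93. With no Gpihbp1 UMI, 208 cells held 1291 CPM of Plvap and 1354 CPM of Cd93. The median depth moved with the bin, at 1385, 1442, 1754 and 2322 UMIs per cell from 0 to 3 or more, and the order of the bins was not the same in every library.

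A second way to describe the members is to set them beside the aerocyte-type cells of the same mouse. Since the gates define both cell types, these ratios are given without a test. Of 4279 genes compared, Vwf (von Willebrand factor, which binds platelets) had the highest mean log2 ratio, 4.73 (range 3.07 to 7.42 over 15 mice), with 148 CPM in members and 8.58 CPM in aerocyte-type cells. Edn1, the vasoconstrictor endothelin, followed at 4.57, with 410 against 18.6 CPM. Next to these stood the connexin Gja4 (4.32), Plvap (4.26), the laminin-binding integrin subunit Itga6 (4.16), Aplnr (4.07) and the chemokine Cxcl12 (3.90). MHC class II genes H2-Eb1 (3.84), H2-Ab1 (3.60) and Cd74 (3.32) and the stem cell factor receptor Kit (3.57) were also on the members' side. In all 15 mice each of these was higher in members. Vwf is also a listed venous marker, and Gja4 and Cxcl12 are listed arterial markers. The ratios therefore set members apart from aerocyte-type cells and not from arterial or venous cells.

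The aerocyte side held complementary partners. Apln, the ligand of the apelin receptor, had a log2 ratio of -5.34, with 14.9 CPM in members and 611 CPM in aerocyte-type cells, whereas its receptor Aplnr was on the other side. The transcription factor Tbx2 stood at -5.44 and the integrin subunit Itgb5 at -5.87. Some familiar capillary genes did not separate the cell types by detection: the fatty acid transporter Cd36 was found in 96.9% of members and 98.9% of aerocyte-type cells of the β1fl/fl library at day 7, and the prostaglandin-degrading enzyme Hpgd in 94.9% and 93.6%.

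**Figure D1:**
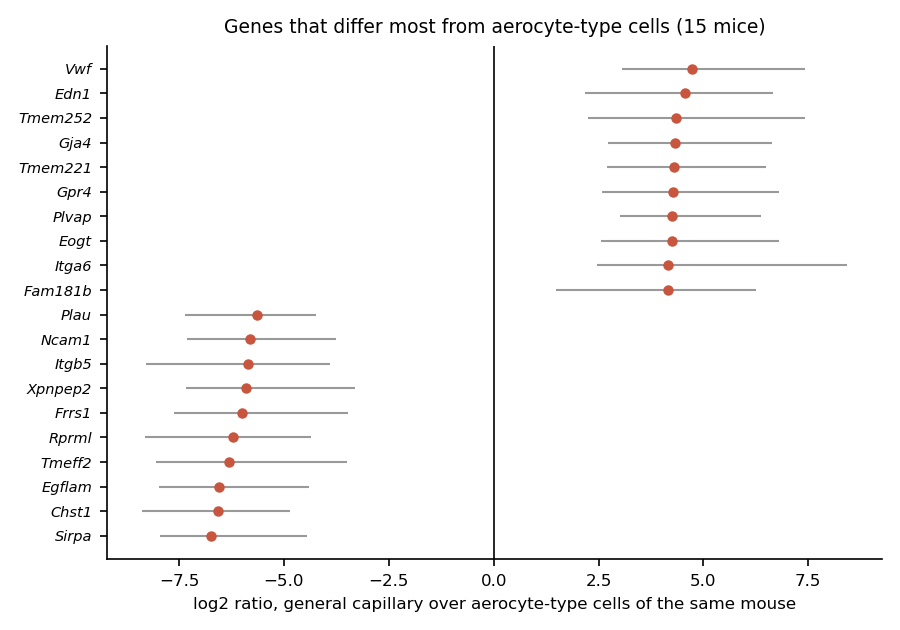
Mean log2 ratio (points) and range over 15 mice (lines) of the 10 genes highest in general capillary cells and the 10 highest in aerocyte-type cells of the same mouse. Vwf leads the first side at 4.73, and no line crosses 0.

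Itgb1 itself, the floxed gene, was present in members of every mouse. It stood at 1027, 1082 and 879 CPM in β1fl/fl mice and at 1031, 974 and 1101 CPM in β1AT2-KO mice after LPS at day 7. At day 21 the values were 822, 974 and 938 CPM in β1fl/fl and 1084, 772 and 760 CPM in β1AT2-KO mice. The genotypes overlapped at both times, with log2 differences of 0.040 ± 0.154 (SE, adjusted p = 0.96) and -0.077 ± 0.178 (adjusted p = 0.97). In non-endothelial cells, which include AT2 cells, Itgb1 stood at 568 CPM in β1fl/fl and 479 CPM in β1AT2-KO mice after LPS at day 7, and at 598 and 212 CPM at day 21 (1 library each, no test). Members are not the cells in which the gene was deleted, so their Itgb1 checks no label.

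After LPS the mean share of members among non-cycling endothelial cells was higher in β1AT2-KO than in β1fl/fl mice at day 7 and lower at day 21, and for LPS against PBS the direction depended on the gate. In β1fl/fl mice at day 7 it was 20.6%, 19.0% and 20.5%, after PBS 28.2%, 26.1% and 23.01%, and in β1AT2-KO mice after LPS 29.0%, 30.7% and 27.1%. At day 21 it was 27.5%, 27.8% and 28.4% in β1fl/fl and 24.6%, 17.7% and 24.1% in β1AT2-KO mice. After LPS, every β1AT2-KO mouse was above every β1fl/fl mouse at day 7 and below every one at day 21, and the PBS and LPS mice overlapped. These shares count only cells with 1 hashtag. Cells without a hashtag were 1.33 to 10.1% of members per library but 14.7 to 56.4% of aerocyte-type cells. Over all cells of a library at day 7 the share was 18.7% in β1fl/fl, 23.8% after PBS and 28.2% in β1AT2-KO mice after LPS. At day 21 it was 21.1% in β1fl/fl and 17.0% in β1AT2-KO mice.

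The mean share after LPS at day 7 was 28.9% ± 1.80 (SD, n = 3) in β1AT2-KO and 20.0% ± 0.877 (SD, n = 3) in β1fl/fl mice, a difference of 8.92 percentage points (two-sided exact permutation test, p = 0.1, the lowest that 3 mice against 3 allow). Against PBS mice, at 25.8% ± 2.62 (SD, n = 3), the difference was 3.14 points (exact permutation p = 0.2). At day 21 the means were 22.2% ± 3.84 and 27.9% ± 0.482 (SD, n = 3 each), a difference of -5.75 points (exact permutation p = 0.1). When a cell was counted if its Gpihbp1 UMIs exceeded those of Car4, Ednrb and Fibin together, the share was 50.04% after LPS and 55.2% after PBS, a difference of -5.11 points in the opposite direction, and the day 7 genotypes overlapped (5.84 points, exact permutation p = 0.2). At day 21 that gate gave -8.83 points (exact permutation p = 0.1). Among cells with 1 hashtag, the share of aerocyte-type cells ran from 8.44 to 12.4% of endothelial cells in β1AT2-KO mice after LPS at day 7. It ran from 16.6 to 17.4% after PBS and from 19.0 to 19.7% in β1fl/fl mice. Fewer cells of a type and less RNA of the gate genes per cell cannot be told apart, and the day 21 sort changed the starting mixture.

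Among members of a library, surfactant, antigen-display and immediate early transcripts had some of the highest values of variance over the mean. The measure pools the mice of a library, so it holds spread between mice as well as between cells. It can also rise with the mean level of a gene. The variance over the mean, computed at 2000 UMIs per cell over 1511 genes and given as the median of 5 libraries, was highest for Sftpc (28.6), the nuclear RNA Malat1 (23.02), the MHC class II chaperone Cd74 (11.3) and the immediate early genes Fos (9.69), Egr1 (9.40) and Junb (7.996). Sftpc is the surfactant transcript of AT2 cells, and it moved from 1.83 to 113 between libraries. Its spread is not read as a trait of members.

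MHC class II varied widely between mice of the same group. Cd74 stood at 820, 12380 and 6426 CPM in the 3 PBS mice, at 4473, 1470 and 5375 CPM in β1AT2-KO mice after LPS at day 7 and at 2652, 2784 and 5369 CPM in β1fl/fl mice. The PBS mice therefore held both the lowest and the highest value of all 15. In PBS mouse 1, 43.4% of members had a Cd74 UMI at equal depth, against 99.6% and 95.3% in the other two. H2-Aa, an alpha chain of the class II molecule, followed with 355, 2509 and 1284 CPM after PBS. Of 8 class II genes tested none passed in the LPS comparison, in which 812 of all 8945 genes did (9.08%). None passed in either genotype comparison, where 0.995% of all genes did at day 7 and 0.94% at day 21. The LPS result depended on the setting. Cd74 (-0.87 ± 0.565) was called lower without PBS mouse 1 (-1.39, adjusted p = 0.012), with sex as a covariate and in males only. PBS mouse 1 was the only female of its group, so these settings all turn on the same mouse. Cd74 was also called lower with no filter on low counts, and without PBS mouse 2 its log2 fold change was 0.0184. H2-Aa did the same, at -1.22 without PBS mouse 1 (adjusted p = 0.0066) and 0.0307 without PBS mouse 2.

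LPS against PBS in β1AT2-KO mice at day 7 gave the most changes. Members after LPS held less Lpl, Plvap and Tspan7, less of the BMP receptors and targets Acvrl1, Eng, Smad6, Smad7 and Id3, less Gata2, Sox18 and Thbd, and more Cd34, Hlx, Nr4a1, Sparc and Mcm2. The test was edgeR's quasi-likelihood test on UMIs summed per mouse, with Benjamini-Hochberg adjustment over all genes, and genes were called at an adjusted p under 0.05. Of 8945 genes tested 812 were called (9.08%), 390 higher (4.36%) and 422 lower (4.72%), with a median log2 fold change of 0.0147 over all genes. The PBS and LPS mice did not overlap in 27.6% of genes tested, the background for each gene below whose groups are said to be apart. Likewise, the 9.08% called over all genes is the background for the count of calls in each list below. Of 811 outside the rule, 262 were called under all 17 alternative settings, 102 higher and 160 lower. Gpihbp1 itself, used to choose the cells, is not read as a result.

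Among lipid handling genes 1 of 7 tested rose and 1 fell. Lpl, the lipase that GPIHBP1 presents, stood at 462, 382 and 346 CPM after PBS and at 157, 104 and 142 CPM after LPS. Every PBS mouse was above every LPS mouse by more than the spread within either group. The log2 fold change was -1.64 ± 0.147 (SE, adjusted p = 1.2e-06), a fall of 3.11-fold, and it was called in all 17 alternatives. The gene lies on chromosome 8 from 68880491 to 68907448 (GRCm38). Fabp5, a fatty acid binding protein, rose by 1.06 ± 0.284 (adjusted p = 0.023) from a mean of 31.4 to 74.0 CPM, while its mean in non-endothelial cells of the LPS library was 259 CPM. Cd36 and the HDL receptor Scarb1 did not pass, at -0.29 and 0.35.

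Of 15 genes tested in the general capillary list 6 fell and 1, Adgrl2, rose, with a median log2 fold change of -0.23. Not all of the list set these cells apart here, since the mean log2 ratio to aerocyte-type cells was -1.46 for Adgrl2, 0.40 for Tspan7 and 0.36 for Tmem100, against 4.26 for Plvap. Plvap stood at 4112, 2914 and 3239 CPM after PBS and 2454, 2448 and 1865 CPM after LPS. The PBS mice were all higher, and the log2 fold change was -0.66 ± 0.149 (adjusted p = 0.0074). Tspan7, a tetraspanin, stood at 3935, 3794 and 4005 CPM after PBS and 2750, 3008 and 2205 CPM after LPS, without overlap (-0.62 ± 0.124, adjusted p = 0.0032). The semaphorin Sema3c, Hpgd and Tmem100, a BMP-dependent membrane protein, also fell, but each lost its call in 2 to 5 of 17 alternatives. Lpl, Plvap and Tspan7 were called in all of them. Aplnr stood at 194, 82.7 and 109 CPM after PBS and 195, 212 and 178 CPM after LPS, with no call.

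Of 17 genes tested in the BMP and TGF-beta list 7 fell and 1, not described here, rose, with a median of -0.20. BMP9 and BMP10 in blood act through the receptor Acvrl1 and its partner endoglin (Eng) to keep vessels quiet, and Id1, Id3, Smad6 and Smad7 are their usual targets. Smad6 stood at 564, 506 and 762 CPM after PBS and 290, 323 and 348 CPM after LPS. No LPS mouse reached the lowest PBS mouse, and the log2 fold change was -0.99 ± 0.150 (adjusted p = 3.0e-04). Eng stood at 1676, 1739 and 2094 CPM after PBS and 1260, 1035 and 1050 CPM after LPS (-0.78 ± 0.119, adjusted p = 3.1e-04), and Acvrl1 fell by 0.59 on the log2 scale (adjusted p = 0.0040). Id3 and Smad7 fell by 0.73 and 0.77. These 5 genes were called in all 17 alternatives, whereas the ligand Bmp6 and Id1 were not.

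Genes linked to shear stress and quiescence split into 5 falls and 2 rises among 15 tested. Gata2, an endothelial transcription factor, stood at 390, 364 and 370 CPM after PBS and 194, 120 and 122 CPM after LPS. The gap between the groups was larger than either range, and the log2 fold change was -1.42 ± 0.147 (adjusted p = 4.8e-06). Thrombomodulin (Thbd), which turns thrombin to an anticoagulant role, stood at 1968, 2000 and 1969 CPM after PBS and 1513, 1405 and 1271 CPM after LPS (-0.57 ± 0.105, adjusted p = 0.0018). Cdkn1a, the cell cycle inhibitor p21, fell by 1.83 on the log2 scale from 825, 625 and 319 CPM to 174, 140 and 217 CPM. The vascular transcription factor Sox18 and the sphingosine-1-phosphate receptor S1pr1 fell as well, S1pr1 from 1472, 1748 and 1515 to 1184, 1094 and 1122 CPM. These 5 falls were called in all alternatives. Klf2, the flow-responsive factor, instead rose from 2497, 2271 and 2095 to 3188, 3603 and 3271 CPM, and that call was lost in 4 of 17 alternatives.

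Receptors of vessel growth and tone changed singly. Ramp2, the co-receptor that makes Calcrl bind adrenomedullin, stood at 7011, 7292 and 7628 CPM after PBS and 4691, 5160 and 3853 CPM after LPS (-0.74 ± 0.120, adjusted p = 5.7e-04), whereas Calcrl did not pass (-0.11 ± 0.107). Among 16 genes of the VEGF, apelin and angiopoietin list, Ramp2 was the 1 lower and Nrp2 the 1 higher, from 5.05 to 23.2 CPM. The share of this list called was near that over all genes (9.08%). Of 10 vasoactive genes 4 fell: angiotensin-converting enzyme Ace, the endothelin-converting enzyme Ece1, the cyclooxygenase Ptgs1 and Hpgd. Ptgs1 fell by 1.20 ± 0.151 on the log2 scale (adjusted p = 4.8e-05), and of the 4 only Ptgs1 and Ece1 were called in all alternatives. In the Notch list of 9 genes the target Hey1 fell by 0.67 and Nrarp, a feedback regulator, rose by 0.56.

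Among leukocyte adhesion and chemokine genes 2 of 8 rose and 2 fell. Cd34, a sialomucin of capillary endothelium, stood at 276, 249 and 195 CPM after PBS and 559, 441 and 769 CPM after LPS. All LPS mice were above all PBS mice, by 1.22 ± 0.193 on the log2 scale (adjusted p = 4.6e-04). The scavenging chemokine receptor Ackr3 rose by 1.01 and the macrophage growth factor Csf1 fell by 1.01, and all 3 calls held in every alternative. The adhesion molecule Icam2 fell by 0.40, a call lost in 4 of 17. Of 13 NF-kB feedback genes, Tnfaip3 alone passed, rising from 18.2 to 41.8 CPM, a share of calls near that over all genes (9.08%).

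Most interferon-stimulated and MHC class I genes did not pass the test, and most of those that did were lower after LPS. Of 30 interferon-stimulated genes tested 6 fell and 1, Ifit2, rose, with a median of -0.26. Irf1, an interferon-induced transcription factor, stood at 1195, 1140 and 910 CPM after PBS and 620, 798 and 552 CPM after LPS (-0.78 ± 0.208, adjusted p = 0.022). Ly6a, which encodes the surface protein Sca-1, fell by 0.67 (adjusted p = 0.0078). Of 16 class I genes 3 fell, among them the non-classical H2-T23 by 0.57, and the classical H2-D1 and H2-K1 did not pass (-0.11 and -0.060). None of these 10 calls held in all 17 alternatives.

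Of 13 basement membrane genes tested 7 rose, none fell and 6 did not pass, and the median was 0.85. Col4a1, a chain of the network-forming type IV collagen, stood at 1177, 793 and 751 CPM after PBS and 1857, 1242 and 2195 CPM after LPS. The groups did not overlap, and the log2 fold change was 0.89 ± 0.202 (adjusted p = 0.0080). Sparc, which binds collagen IV, stood at 1238, 888 and 818 CPM after PBS and 1856, 1615 and 2110 CPM after LPS (0.85 ± 0.162, adjusted p = 0.0022). Sparc was the 1 of the 7 called in all alternatives. Summed mesenchymal markers in members moved with this list, from 75.6 to 124 CPM after PBS and from 408 to 576 CPM after LPS, with 5 of 8 tested markers called higher. Non-endothelial cells of the LPS library held 3636 CPM of Sparc and 718 CPM of Col4a1. The part of free RNA or doublets in these rises was not tested.

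Some replication genes rose in members, all of which had no UMI of Mki67 or Top2a by rule. That step took endothelial cells from 7948 to 7928 in the PBS library and from 4955 to 4388 in the β1AT2-KO LPS library at day 7. A cycling cell can lack a captured UMI of both genes, and the part of such cells in these rises was not tested. Of 14 S phase and growth genes 7 were higher, the helicase subunits Mcm2, Mcm3, Mcm4, Mcm5 and Mcm6 with Ccnd1 and Myc, and Ccnd3 was lower. Mcm2 stood at 8.66, 7.04 and 5.08 CPM after PBS and 17.6, 30.8 and 49.9 CPM after LPS, Mcm5 at 3.33, 3.52 and 6.09 against 11.4, 15.4 and 36.7 CPM, and Mcm6 at 29.3, 22.9 and 22.3 against 49.8, 57.8 and 74.9 CPM. Every LPS mouse was above every PBS mouse for these 3 genes, with LPS mouse 3 the highest in each. The log2 fold changes were 2.06 ± 0.390 for Mcm2 (adjusted p = 0.0021) and 1.17 ± 0.228 for Mcm6 (adjusted p = 0.0026). Mcm2 and Ccnd3 were called in all 17 alternatives, Mcm6 in all but 1, and Mcm5 in all but 1 of the settings that tested it, with 2 that did not, and Mcm3 and Mcm4 lost the call in 9 and 11.

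Promoters of 2 of these helicase genes are shown because their genes moved together and both hold letters of the kind that E2F factors bind at replication genes. The motifs TTTGGCGC, TTTGCCGC, TTTCGCGC and TTTCCCGC were searched on both strands, a choice made after the values were seen, in the 250 bases before and 50 after the start site (RefSeq, GRCm38.p6). Capitals mark a match, and neighbouring matches overlap. The Mcm5 window is chr8:75109259-75109558 on the plus strand and the Mcm6 window chr1:128359656-128359955 on the minus strand.
Mcm5: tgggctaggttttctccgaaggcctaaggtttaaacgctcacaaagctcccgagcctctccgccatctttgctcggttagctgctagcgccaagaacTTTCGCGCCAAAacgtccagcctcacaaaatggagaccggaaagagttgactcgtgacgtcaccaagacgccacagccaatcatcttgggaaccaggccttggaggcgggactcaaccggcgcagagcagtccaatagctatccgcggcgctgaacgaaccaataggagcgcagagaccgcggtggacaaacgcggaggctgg
Mcm6: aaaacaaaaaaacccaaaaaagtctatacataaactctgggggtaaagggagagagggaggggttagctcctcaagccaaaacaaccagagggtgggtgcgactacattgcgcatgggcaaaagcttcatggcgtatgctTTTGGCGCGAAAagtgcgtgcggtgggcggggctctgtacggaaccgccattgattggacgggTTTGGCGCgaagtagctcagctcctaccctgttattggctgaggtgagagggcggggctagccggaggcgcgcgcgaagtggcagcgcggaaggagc
Mcm5 held 2 matches and Mcm6 held 3. Mcm3 held 2, and Mcm2 held none, while its rise of 2.06 on the log2 scale was close to that of Mcm5 (2.16 ± 0.475, adjusted p = 0.0065). Mcm7, which was not called (0.38 ± 0.252), held 2 matches in 1 of its 2 promoters and none in the other, and Mcm4 had no entry. Of all 32851 promoters listed by RefSeq, 744 held at least 1 match (2.26%). A match is a description of the letters and not a site of binding.

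Immediate early and stress genes fell in part. Of 13 immediate early genes Jun, Junb and Jund were lower and Nr4a1 and Fosl2 higher. Junb stood at 2244, 2543 and 2185 CPM after PBS and 1441, 1684 and 1280 CPM after LPS (-0.73 ± 0.152, adjusted p = 0.0045), and Nr4a1, an orphan nuclear receptor, at 41.3, 58.0 and 53.8 against 129, 185 and 167 CPM (1.602 ± 0.183, adjusted p = 1.4e-05). The groups were apart in both genes, in opposite directions. Non-endothelial cells of the LPS library held 2166 CPM of Junb and 541 CPM of Nr4a1. Of 11 heat shock genes 3 fell, and of these Hspa8 was called in all alternatives (-0.80 ± 0.147). Bhlhe40, Dbp and Per3 of 14 clock genes rose, and only Bhlhe40, from 62.6, 49.2 and 40.6 to 127, 161 and 248 CPM, was called in all.

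**Figure D2:**
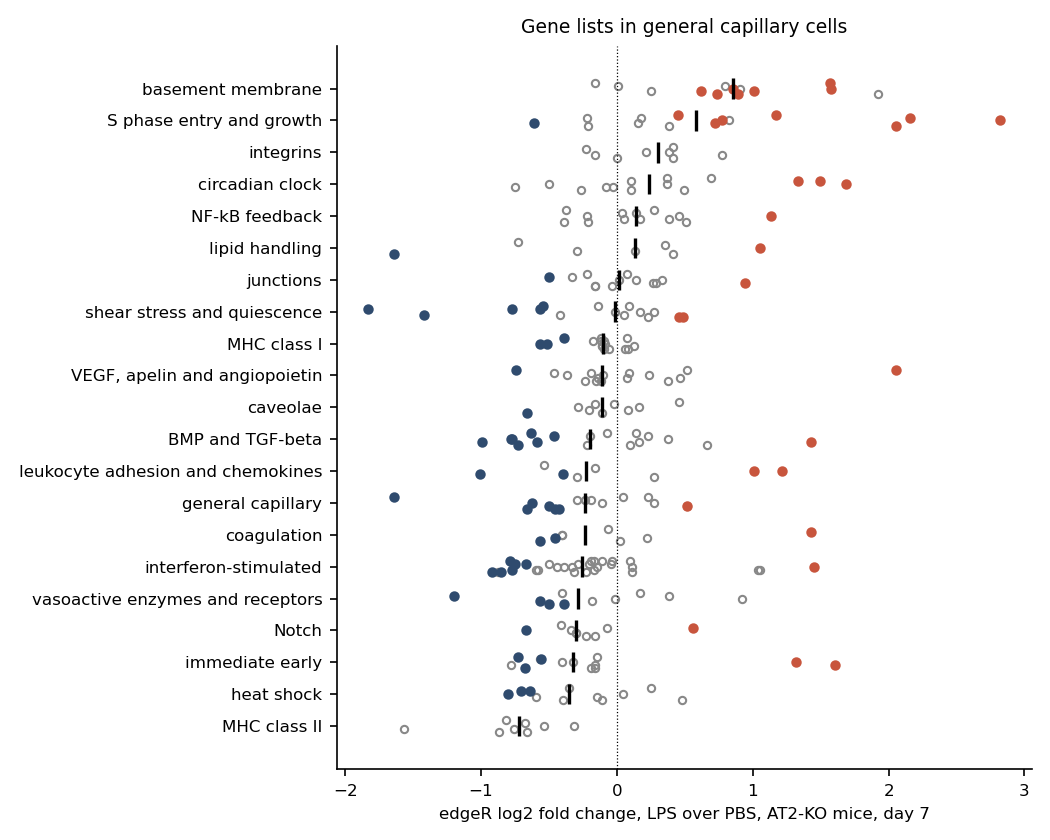
edgeR log2 fold change of LPS over PBS in β1AT2-KO members at day 7, 1 circle per tested gene of each list (filled red, called higher, filled blue, called lower, open, not called), with the median of the list as a bar, ordered by median. The basement membrane (0.85) and S phase (0.59) lists lie highest and MHC class II (-0.72), in which no gene was called, lies lowest.

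The largest changes outside the lists were led by transcription factors. The named genes were those of largest fold change with at least 50 CPM, groups of mice that did not overlap, and a level of at least 0.2 times that in non-endothelial cells of the library. Genes of the rule, the sex-linked genes used above, and mitochondrial and ribosomal protein genes were left out. In this comparison 184 of the 390 higher and 346 of the 422 lower genes met those conditions. Zbtb16, a zinc finger factor that glucocorticoids induce, stood at 388, 344 and 234 CPM after PBS and 45.6, 55.9 and 35.2 CPM after LPS. This was the steepest fall among genes that met the conditions, 7.27-fold (log2 -2.86 ± 0.220, adjusted p = 2.0e-07), and even the lowest PBS mouse was far above the LPS mice. The homeobox factor Hlx stood at 22.6, 14.1 and 16.2 CPM after PBS and 81.9, 87.7 and 119 CPM after LPS, the steepest rise among them (2.31 ± 0.217, adjusted p = 1.8e-06).

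Other falls were the sulfotransferase Sult1a1 (-2.14), Fam107a (-2.07), the glycosyltransferase A4galt (-1.97), the Wnt inhibitor Nkd2 (-1.90), the FGF receptor Fgfr3 (-1.85) and Lims2, a focal adhesion protein (-1.71). Fgfr3 went from 119, 135 and 150 CPM to 43.6, 36.6 and 35.2 CPM. A4galt, Fgfr3 and Lims2 were higher in aerocyte-type cells than in members in all 15 mice, whereas Sult1a1 was higher in members in 14. Any part of aerocyte RNA in these falls was not tested. Other rises were 8430408G22Rik, also called Depp1 (2.20), Nrep (1.70), the membrane collagenase Mmp14 (1.57) and Zfp46 (1.57). Mmp14 went from 43.3, 14.95 and 12.2 CPM to 85.1, 66.5 and 88.1 CPM, and non-endothelial cells of the LPS library held 254 CPM. All of these were called in the 17 alternatives. The β1fl/fl mice after LPS were on the LPS side for Zbtb16 (106, 76.7 and 57.0 CPM) and between the groups for Hlx (39.0, 45.8 and 60.7 CPM), which is a description, as no β1fl/fl mice given PBS were analysed.

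**Figure D3:**
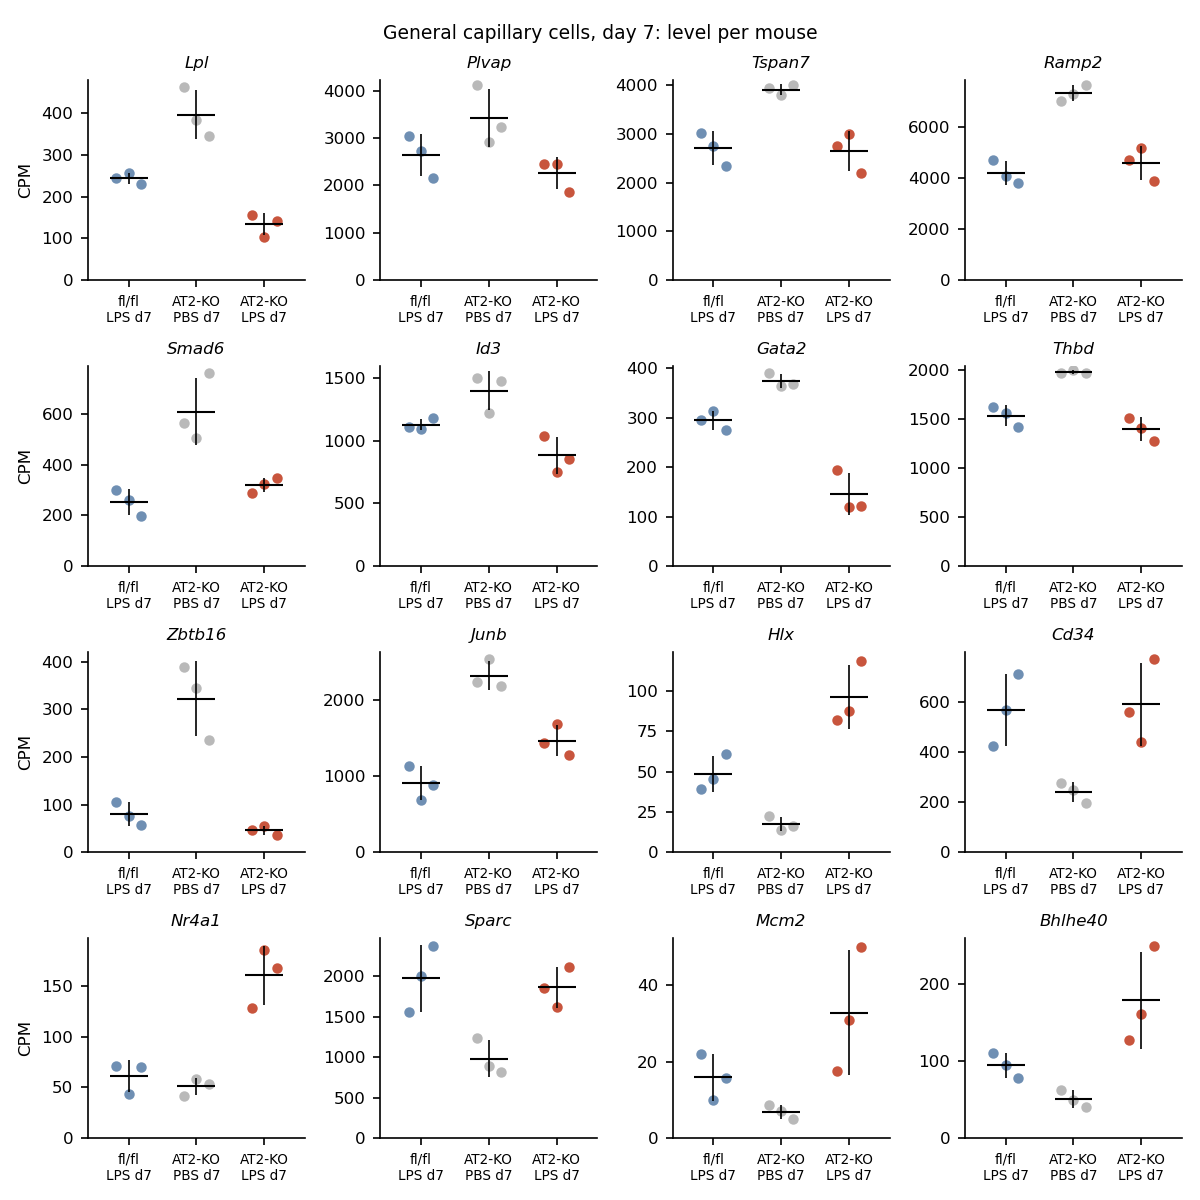
CPM of 16 genes in members of each day 7 mouse (points), with mean and SD of 3 mice per group. Lpl, Plvap, Tspan7, Ramp2, Smad6, Id3, Gata2, Thbd, Zbtb16 and Junb are higher in all β1AT2-KO PBS mice than in the β1AT2-KO LPS mice, and Hlx, Cd34, Nr4a1, Sparc, Mcm2 and Bhlhe40 are lower.

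Far fewer genes differed between β1AT2-KO and β1fl/fl mice after LPS at day 7. Members of β1AT2-KO mice held more of the clock gene Dbp, of Nr4a1 and Junb and of Tuba1a, and less Lpl, Lipe, Gata2 and Cdkn1a. The β1AT2-KO mice given LPS are the same as in the comparison with PBS, so the 2 comparisons are not independent. Of 8945 genes 89 were called (0.995%), 63 higher (0.704%) and 26 lower (0.291%), and the mice of the genotypes did not overlap in 15.6%. With sex as a covariate 45 genes were called and 8 of them were among the 89. Only the PBS mice inform that covariate, and PBS mouse 1 was the only female among them. Of the 89, 4 were called in all 16 alternatives (Tuba1a, Dpm1, Dynlt1c and Gm8797, named for that reason after their values were seen). Without the sex covariate 13 were. Of 13 mitochondrial transcripts tested 5 were among the 89, all lower in β1AT2-KO mice (-0.57 to -0.44). Another 5 of the 89 were Xist and 4 Y-linked genes. The median mitochondrial share of members was 1.72% in the β1fl/fl and 1.27% in the β1AT2-KO library, and its part in the other calls was not tested.

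Lpl stood at 245, 256 and 229 CPM in β1fl/fl and 157, 104 and 142 CPM in β1AT2-KO mice. The genotypes did not overlap (-0.88 ± 0.153, adjusted p = 0.0069). Lipe, hormone-sensitive lipase, stood at 124, 156 and 138 CPM against 88.2, 63.6 and 89.6 CPM (-0.82 ± 0.156, adjusted p = 0.010), and Gata2 at 296, 313 and 276 against 194, 120 and 122 CPM (-1.03 ± 0.151, adjusted p = 0.0021). All 3 were lower in each β1AT2-KO mouse. With sex in the model the adjusted p was 0.52 for Lpl, 0.13 for Gata2, 0.52 for Dbp and 0.41 for Nr4a1, and the Lpl call was also lost without β1fl/fl mouse 2 (adjusted p = 0.051). Lipe lost its call without β1fl/fl mouse 2 (adjusted p = 0.095) or β1AT2-KO mouse 2 (adjusted p = 0.087). Cdkn1a stood at 515, 333 and 420 CPM in β1fl/fl and 174, 140 and 217 CPM in β1AT2-KO mice (-1.29 ± 0.261, adjusted p = 0.017), and its call was lost in 7 of 16 alternatives, with an adjusted p of 0.83 with sex in the model.

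All 13 immediate early genes tested had a positive log2 fold change, with a median of 0.58, and 3 were called: Nr4a1, Junb and the antiproliferative gene Btg2. Junb stood at 1139, 693 and 888 CPM in β1fl/fl and 1441, 1684 and 1280 CPM in β1AT2-KO mice, with no overlap (0.68 ± 0.154, adjusted p = 0.039). The Junb and Btg2 calls were lost in 6 and 7 of 16 alternatives, among them each setting without mouse 2 of either group. Of 14 clock genes Dbp, Nr1d2 and Per3 rose. Dbp, an output of the clock, stood at 15.9, 14.8 and 9.71 CPM in β1fl/fl and 66.4, 202 and 109 CPM in β1AT2-KO mice (3.22 ± 0.461, adjusted p = 0.0020), and in PBS mice at 20.0, 64.2 and 50.8 CPM. The hour at which each lung was taken was not given in the sources used here. Ier3, an NF-kB target that guards against apoptosis, rose by 0.92, and Klf2 by 0.61. These calls were lost in 2 and 6 of 16 alternatives, that of Nr1d2 in 2, and that of Per3 in 7 with 1 in which it was not tested. The basement membrane, BMP, Notch, VEGF, caveolae, junction, integrin, heat shock, coagulation, vasoactive, leukocyte adhesion, MHC and interferon lists held no gene called by edgeR. Over all genes only 0.995% were called, so an absence of calls in lists of this size says little. None of the 11 heat shock genes tested had a positive log2 fold change, with a median of -0.34. All 8 leukocyte adhesion genes tested had a positive one, with a median of 0.25. The other lists without a call held genes of both signs. Whether the genes of a list shared a direction was not tested.

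Some of the widest genotype differences at day 7 were not seen at day 21. Tuba1a, an alpha tubulin, stood at 116, 98.9 and 108 CPM in β1fl/fl mice at day 7 and 833, 830 and 762 CPM in β1AT2-KO mice after LPS (2.89 ± 0.131, adjusted p = 8.2e-11). The PBS mice, at 995, 757 and 885 CPM, were on the side of the other day 7 β1AT2-KO mice. At day 21, however, both genotypes were low, at 184, 184 and 194 CPM in β1fl/fl and 155, 280 and 225 CPM in β1AT2-KO mice. Gm8797 ran the other way, with 183, 169 and 164 CPM in β1fl/fl and 11.4, 10.6 and 4.41 CPM in β1AT2-KO mice at day 7, and 323, 317 and 232 against 139, 232 and 216 CPM at day 21. For both genes the genotypes were far apart at day 7. At day 21 those of Tuba1a overlapped and those of Gm8797 met at 232 CPM, with no call for either. Gm8797 lies on chromosome 3 from 5750806 to 5751295 and is a predicted gene whose reads may be shared with a similar gene.

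At day 21 the members of β1AT2-KO mice held less Cav2, Rtp4, Plk2 and H2-T23 and more Cyp26b1 and Epb41 than those of β1fl/fl mice. Each of these calls was lost in some alternatives. Of 2554 genes tested 24 were called (0.94%), 19 higher (0.744%) and 5 lower (0.196%), and the genotypes did not overlap in 11.9%. Only 3 of the 19 higher genes met the conditions for named genes on level, overlap of mice and level in non-endothelial cells. Among these was Scgb1a1, the secretory protein of club cells (272, 81.1 and 232 against 852, 531 and 544 CPM). All 6 epithelial markers tested and Lyz2 rose, and Sftpc stood at 19480, 13780 and 14460 CPM in β1AT2-KO members. Of the 24 calls 5 held in all 14 alternatives, each of them higher. Scgb1a1 was not among these 5, so no call both met the conditions for named genes and held in every alternative.

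Cav2, a caveolin of the vesicles that stud capillary endothelium, stood at 1050, 826 and 879 CPM in β1fl/fl and 558, 492 and 385 CPM in β1AT2-KO mice. The genotypes did not overlap, and the log2 fold change was -0.95 ± 0.193 (adjusted p = 0.0033). At day 7 it stood at 1487, 1276 and 1171 against 1415, 1476 and 1180 CPM, with overlap. Of 8 caveolae genes tested at day 21 Cav2 was the 1 called, and Cav1, its partner, did not pass (-0.20 ± 0.150). The Cav2 call was lost without β1AT2-KO mouse 2 (adjusted p = 0.054), without β1AT2-KO mouse 3 (adjusted p = 0.16) and after thinning to 2000 UMIs (adjusted p = 0.15).

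Cyp26b1, which clears retinoic acid, stood at 7.34, 0 and 32.3 CPM in β1fl/fl and 92.9, 116 and 131 CPM in β1AT2-KO mice (2.86 ± 0.612, adjusted p = 0.0067). The groups were apart, with 0 counts in 1 β1fl/fl mouse of 57 members. The call was lost in 4 of 14 alternatives and the gene was not tested in 2 more. It was lost without β1AT2-KO mouse 2 (adjusted p = 0.20) or 3 (adjusted p = 0.23). Rtp4, an interferon-induced chaperone, stood at 367, 214 and 232 against 124, 125 and 93.8 CPM (-1.23 ± 0.294, adjusted p = 0.027). It was the 1 called of 20 interferon-stimulated genes tested, all 20 of which had a negative log2 fold change, with a median of -0.47 beside -0.00925 over all genes. Its call was lost in 7 of 14 alternatives, and those of Plk2, H2-T23 and Epb41 in 8, 10 and 8, with Epb41 not tested in 1 more. Epithelial and immune RNA in members was higher in the β1AT2-KO library at day 21. Summed immune markers were 984 to 1626 CPM there, against 176 to 297 CPM in β1fl/fl members. The part of this RNA in these differences was not tested.

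**Figure D4:**
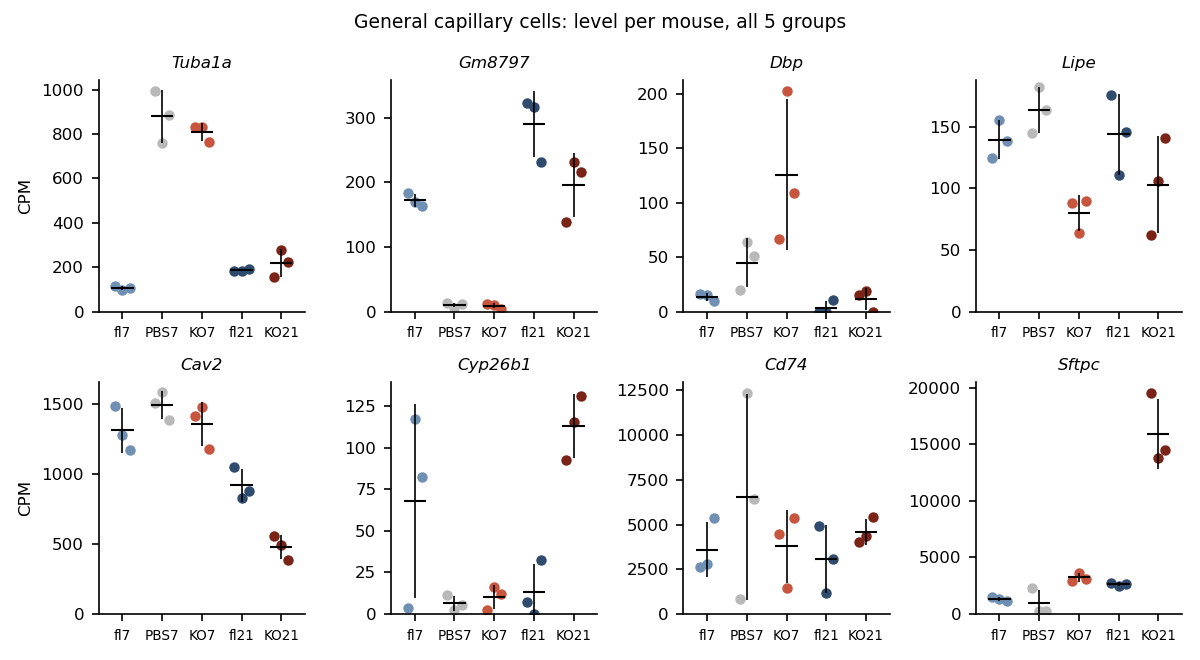
CPM of 8 genes in members of each mouse (points), with mean and SD of 3 mice, for β1fl/fl LPS day 7 (fl7), β1AT2-KO PBS day 7 (PBS7), β1AT2-KO LPS day 7 (KO7), β1fl/fl LPS day 21 (fl21) and β1AT2-KO LPS day 21 (KO21). Tuba1a separates the day 7 genotypes (116 CPM at most against at least 762) but not those at day 21, while Cav2 separates the genotypes at day 21 and overlaps at day 7.

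Whether an effect differed from that in aerocyte-type cells of the same mice was tested as an interaction, with the mouse as a block. For LPS against PBS 58 of 9346 genes differed (0.621%), 14 with a higher (0.15%) and 44 with a lower log2 effect in members (0.471%). In data simulated for this comparison with a fixed spread, the test found 3 of 100 genes with a log2 difference of 1. With a log2 difference of 2 it found 67 of 100. A low count of calls therefore does not show that the cell types responded alike. Smad6 fell from 611 ± 134 to 320 ± 28.9 CPM (SD, n = 3) in members and stood at 417 ± 59.8 and 368 ± 1.83 CPM in aerocyte-type cells, a difference in log2 effect of -0.78 ± 0.136 (SE, edgeR adjusted p = 0.0028). Cd34 rose from 240 ± 41.2 to 590 ± 166 CPM in members and stood at 1543 ± 143 and 1989 ± 320 CPM in aerocyte-type cells (0.87 ± 0.146, adjusted p = 0.0025). For these genes the LPS effect on the log2 scale was therefore larger in members than in the neighbouring cell type. This refers to ratios, and in CPM Cd34 stayed higher in aerocyte-type cells. Between genotypes 10 of 9346 genes differed in effect at day 7 (0.107%), 4 higher (0.0428%) and 6 lower (0.0642%) in members, and 5 of 3691 at day 21, all higher (0.135%). Leaving out β1AT2-KO LPS mouse 1 or mouse 3 brought the 58 down to 18 each, and leaving out PBS mouse 1 brought it up to 118.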

How the data were processed

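Lung cells of 15 mice in 5 droplet libraries were analysed. The authors counted UMIs with Cell Ranger 3.1 on mm10, and the deposited values are raw UMI counts per gene and per hashtag. The submitters' processing notes also name Seurat 4.1.0. Neither a correction for free RNA nor a doublet filter had been applied to the deposited counts, and here doublets were handled only by discarding cells with several hashtags. Reads of Gm42418 were removed. A hashtag counted as used when it held at least 1% of the tag UMIs of its library, and was assigned to a cell when at least 4 times over background. Only cells with 1 hashtag enter values per mouse, numbered in hashtag order. Counts were summed per mouse and tested with edgeR 4.0.16 in R 4.3.3 (TMM, filterByExpr, quasi-likelihood, Benjamini-Hochberg over all genes), 9 mice in 1 model at day 7 and 6 at day 21, and the scripts were tested on simulated data. Mice of a group were processed as 1 pool, so p-values measure the spread between mice within a pool. Alternatives were DESeq2 1.42.0 (size factors or Wald test), no filter, hashtags at 8 times background, Gpihbp1 at 3 UMIs or more, thinning to 2000 UMIs, at most 10% mitochondrial UMIs, no cells of the top 5% by UMIs, the 2 groups alone, sex as a covariate or males only, and each mouse left out. Coordinates are from GENCODE M21 (GRCm38), which matched 99.6% of genes by identifier, and promoters are from RefSeq. Members, gene lists and the rule for named genes were chosen with earlier results of these data known. The named genes were, for each comparison, the 8 largest rises and 8 largest falls under the conditions given in the text, and from each list the called and the 2 most abundant members, up to 5. At day 21, with 35 to 89 members per mouse, 2554 genes had enough counts to be tested, against 8945 at day 7. Some genes are not reported here.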

Additional observations from a re-analysis of the deposited data

Results flagged for a closer look

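In the genes below the effect of a treatment or genotype in general capillary cells differed from that in aerocyte-type cells of the same mice, by edgeR's test of the interaction with the mouse as a block (adjusted p from 3.5e-04 to 0.022). Values are differences in log2 effect. For LPS against PBS they were 1.41 for Hlx, 0.898 for Glul, the enzyme of glutamine synthesis, 0.874 for Cd34, -0.785 for Smad6, -1.06 for the membrane protein Fxyd5 and -1.26 for Fgfr3. Glul stood at 431 and 400 CPM after PBS and LPS in general capillary cells and at 408 and 195 CPM in aerocyte-type cells.

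For genotype at day 7 the differences were -1.83 for Hspa1a, -1.66 for Hspa1b and -1.08 for Hspb1, all heat shock proteins, 0.845 for Tm4sf1, 1.33 for Gja4 and 0.981 for Emp2. Hspa1a stood at 462 CPM in β1fl/fl and 267 CPM in β1AT2-KO general capillary cells, and at 130 and 270 CPM in aerocyte-type cells. All 10 such calls at day 7 were lost without β1AT2-KO mouse 2, and sex and library go with genotype there.

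For genotype at day 21 they were 1.24 for Fos, 1.01 for Junb and 3.15 for Scgb1a1. In general capillary cells Fos stood at 1706 ± 130 CPM in β1fl/fl and 2228 ± 781 CPM in β1AT2-KO mice, and in aerocyte-type cells at 959 ± 225 and 504 ± 168 CPM (SD, n = 3). Scgb1a1 stood at 1941 ± 3059 CPM in aerocyte-type cells of β1fl/fl mice, a spread wider than its mean. All 5 calls at day 21 were lost without β1AT2-KO mouse 3.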

How the results depend on the processing

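No paired analysis was possible because the mice of different groups are different animals with no shared number in the labels. The 116 named genes gave 208 values over the comparisons and 3315 under alternatives. Of these 3040 kept their side of the threshold, 246 lost the call and 29 gained one. The sign changed in 117, all of them of genes that were not called. The share of members after LPS less that after PBS was 3.14 points, 6.52 after thinning and -5.11 when Gpihbp1 UMIs had only to exceed those of Car4, Ednrb and Fibin, which admits cells with aerocyte transcripts. The day 7 genotype difference of 8.92 points was 5.84 with that gate and 6.68 at 3 Gpihbp1 UMIs. Without 1 mouse these differences ran from 1.75 to 4.35, from 8.04 to 9.84 and, at day 21, from -7.00 to -3.54 points.

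For LPS against PBS, 812 genes became 447 with the DESeq2 Wald test, 468 after thinning, which keeps fewer counts, and 496 to 888 without 1 mouse, lowest without β1AT2-KO LPS mouse 3. For genotype at day 7, 89 became 232 with no filter, 59 with the Wald test, 135 with the 2 groups alone, 45 with sex as a covariate and 24 to 74 without 1 mouse (24 and 45 without β1fl/fl mice 2 and 3, 50 without β1AT2-KO mouse 2). At day 21, 24 became 15 with the Wald test, 6 after thinning and 16 to 27 without 1 mouse. Genes whose effect differed from aerocyte-type cells numbered 58, 10 and 5, with no filter 118, 29 and 10, and without 1 mouse 18 to 118, 0 to 15 and 0 to 11. At day 21 hashtags at 8 times background gave 13. At day 7 they fell to 21 without PBS mouse 2 in the LPS comparison, and to 3 without β1fl/fl mouse 3 and 6 without β1AT2-KO mouse 3 in the genotype comparison. At day 21 they were 3, 8 and 11 without β1fl/fl mice 1, 2 and 3 and 2 without β1AT2-KO mouse 1. Apart from thinning, the cause of these shifts was not tested. At day 21 depth limited the genes that could be tested to 2554.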
